A study of Drosophila melanogaster with 4 samples.

Results

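Drosophila germ cells, called pole cells while they sit at the posterior of the embryo, are carried into the midgut pocket, cross the midgut wall and move through the mesoderm to the gonad. On the way they read lipid cues. The paired phosphatases wun and wun2 dephosphorylate lipid phosphates, repel germ cells from the tissues that make them, and inside germ cells are needed for survival. The receptor Tre1 starts the exit from the midgut, E-cadherin (shg) holds germ cells to each other and to gonadal cells, the ABC transporter Mdr49 acts with the isoprenoid pathway that makes a germ cell attractant, and the stathmin stai binds tubulin dimers. These 6 genes are described here, chosen by their symbols as listed for this topic. Of the 6, 4 were measured (wun, wun2, shg and Mdr49, out of 10804 genes in all), by 7 probes that carry 1 gene symbol each. No probe was paired with Tre1 or stai by symbol or by gene ID in the annotation used, so both were not analysed here. No sequences of the probes were used here.

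RNA of pole cells sorted by FACS on the germ-line marker EGFP-Vas was compared on 4 Agilent arrays of 2 colours, all from embryos at stages 8 to 14. Driven cells with D168A came from nosGal4:VP16/nosGal4:VP16 mothers and fathers carrying UAS-tao-1(D168A) with EGFP-Vas, and their non-driven counterparts from yw mothers and the same kind of fathers. Driven cells with D168D and their non-driven counterparts came from the same 2 kinds of mothers and from fathers carrying UAS-tao-1(D168D) with EGFP-Vas. All 4 sources thus carried a UAS transgene for Tao, a Ste20-family kinase, and the marker, and the driver sits under nos control, which is active in the germ line. By the labels D168A is a dominant-negative form. D168D is a wild-type form in the title of the series and is tagged gof in the sample titles. Mothers and driver differ together, so the transgene and the maternal genotype cannot be told apart in any ratio given here.

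Each form had 1 array with driven RNA labelled Cy3, called its Cy3 array here, and 1 with the dyes swapped, called its Cy5 array, which together are 1 replicate. Every value below is a log2 ratio of driven over non-driven cells, so it says nothing of the level of a gene, and ± gives how far the arrays of a form lie from their mean. That distance covers hybridisation and dye and no biological spread. Tao, the expressed transgene, was at 2.98 (Cy3 array) and 2.84 (Cy5 array) for D168A, and at 3.04 (Cy3) and 2.99 (Cy5) for D168D. The D168D Cy3 array was the widest of the 4, with a median absolute deviation over genes of 0.253, against 0.118 to 0.168 on the other arrays. The 2 arrays of a form correlated across genes at r = -0.10 for D168A and 0.01 for D168D, a description over 10804 genes that are not independent. Across the forms, r was 0.36 between the Cy3 arrays and 0.15 between the Cy5 arrays. Between D168A Cy5 and D168D Cy3 it was 0.30, and between D168A Cy3 and D168D Cy5 it was -0.15. Of the germ-line markers, 6 of 10 were measured and had medians of form means of 0.09 with D168A and 0.13 with D168D. By array, the medians of these markers were 0.18 (Cy3) and -0.02 (Cy5) for D168A. For D168D they were 0.31 (Cy3) and -0.09 (Cy5), so the sign followed the dye in both forms. Lists of markers of other cells, of which 34 genes were measured, had medians from -0.05 to 0.12 with D168A and from -0.12 to 0.19 with D168D. Single markers lay farther from 0, with form means from -0.20 to 0.59 with D168A and from -1.06 to 0.31 with D168D. The hemocyte scavenger receptor gene Sr-CI, a single probe, was at 0.41 ± 0.20 with D168A and -1.06 ± 0.26 with D168D. It was the only one of the 34 past 1.5-fold on both arrays of a form, lower with D168D, as were 0.315% of all genes. Its list, hemocytes and fat body, did not share the D168D value. The list medians were 0.12 with D168A and 0.10 with D168D, with 5 of 7 genes above 0 in each form. The cuticle gene knk was at 0.59 ± 0.01 with D168A and 0.26 ± 0.19 with D168D, above 0 on 4 of 4 arrays as a gene mean. Its probes were unlike. Probe 1 had form means of 1.22 with D168A and 0.50 with D168D, and probe 2 of -0.03 and 0.02. Both genes are named after their values were seen. The Sr-CI means, and the knk mean with D168A, were larger in size than every member's mean with the same form. So were the D168A means of 4 more markers of other cells, Yp1 (0.39), GATAe (0.31), Pxn (0.23) and bap (0.22). With D168D no marker of other cells except Sr-CI was. Since the arrays give ratios only, the part of other cells in the members' ratios was not tested. In a sorted bulk sample, fewer cells of a type and less RNA per cell cannot be told apart.

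In driven cells both wunen phosphatase genes lay slightly above 0 with either form of the kinase. In the form means the measured members ranged from 0.882-fold of non-driven cells (Mdr49) to 1.38-fold (wun2), both with D168D. With D168D the gene for E-cadherin stood beside wun2 at 1.31-fold, while Mdr49 was the only one of the 4 below 0 in the form means. Of the 4 members, 0 were 2-fold or more above non-driven cells on both arrays of either form. The share over all genes was 0.148% with D168A and 0.157% with D168D. At least 2-fold lower were again 0 of 4, where the share over all genes was 0.00926% in each form.

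**Figure D1:**
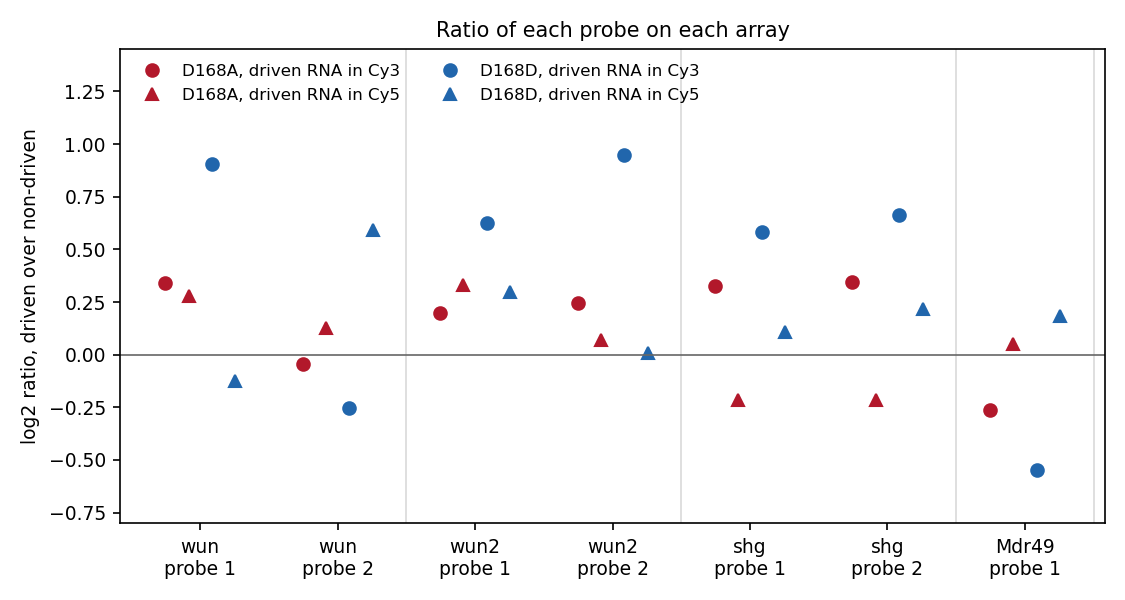
Log2 ratio of driven over non-driven cells for the 7 probes (x axis) on the 4 arrays, with D168A in red and D168D in blue, circles for driven RNA in Cy3 and triangles for driven RNA in Cy5. The 2 probes of shg repeat each other on every array, those of wun do not, and both wun2 probes are above 0 on 4 of 4 arrays.

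The gene wun2 encodes a lipid phosphate phosphatase that germ cells themselves need in order to survive migration. For D168A it was at 0.22 on the Cy3 array and 0.20 on the Cy5 array. For D168D it was at 0.79 on the Cy3 array and 0.15 on the Cy5 array. All 4 arrays were above 0, and the D168D Cy3 array stood apart from the other 3. The form means were 0.21 ± 0.01 with D168A and 0.47 ± 0.32 with D168D, and 87.3% and 96.6% of genes had a lower mean. On that highest array 97.7% of genes were lower, against 74.5% on the D168D Cy5 array.

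The probes of wun2 agreed in direction. For D168A probe 1 gave 0.20 (Cy3) and 0.33 (Cy5), and probe 2 gave 0.25 (Cy3) and 0.07 (Cy5). For D168D probe 1 gave 0.62 (Cy3) and 0.30 (Cy5), and probe 2 gave 0.95 (Cy3) and 0.0067 (Cy5), the last next to 0. Averaged over arrays the probes were 0.23 apart, against a median of 0.32 over the 4814 genes with 2 probes.

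Its neighbour wun, the founding member of the pair, lies beside wun2 in the RefSeq gene table with 0 annotated genes between them. As a gene mean, wun was at 0.15 (Cy3) and 0.20 (Cy5) for D168A, and at 0.32 (Cy3) and 0.23 (Cy5) for D168D. These values lie close together and all above 0, with form means of 0.18 ± 0.03 and 0.28 ± 0.05. The closeness is not found in the single probes. For D168A probe 1 gave 0.34 (Cy3) and 0.28 (Cy5), and probe 2 gave -0.05 (Cy3) and 0.13 (Cy5). For D168D probe 1 gave 0.90 (Cy3) and -0.12 (Cy5), and probe 2 gave -0.26 (Cy3) and 0.59 (Cy5). On the D168D arrays the probes had opposite signs in either dye orientation, with a gap of 1.16 on the Cy3 array and 0.71 on the Cy5 array. Over the 4 arrays the mean gap was 0.60, larger than in 89.2% of genes with 2 probes. Probe 1 was above 0 on 3 of 4 arrays and probe 2 on 2 of 4, so the small ± of the wun gene mean comes from probes that deviate in opposite directions. Whether a wun probe also binds wun2 RNA was not tested.

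Over all genes, 9.33% were above 0 on 4 of 4 arrays and 8.26% were below 0 on 4 of 4. Of the 4 members, 2 (wun and wun2) were above on 4 of 4 and 0 were below. With D168A the same 2 were above 0 on both arrays, a position held by 24.4% of genes. With D168D 3 members were, namely wun, wun2 and shg, against 23.3% of genes. None of the 4 was below 0 on both arrays of a form, where 21.5% of genes were with D168A and 24.1% with D168D.

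The gene shg encodes E-cadherin, the homophilic adhesion protein of adherens junctions. It was at 0.34 (Cy3) and -0.22 (Cy5) for D168A, and at 0.62 (Cy3) and 0.16 (Cy5) for D168D. With D168A the dye orientations thus lay on opposite sides of 0, and the mean was 0.06 ± 0.28. With D168D both lay above 0, and the mean was 0.39 ± 0.23, higher than in 94.7% of genes. The shg probes were nearly alike on each array, apart by 0.0017 to 0.11. Their mean gap over arrays of 0.05 was larger than in only 0.353% of genes with 2 probes. The sign change between the D168A arrays was present in both probes, at 0.33 (Cy3) and -0.22 (Cy5) for probe 1 and at 0.35 (Cy3) and -0.22 (Cy5) for probe 2.

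The transporter gene Mdr49 had 1 probe, so no second probe checks it. It was at -0.26 (Cy3) and 0.05 (Cy5) for D168A, and at -0.55 (Cy3) and 0.18 (Cy5) for D168D. Both Cy3 arrays were below 0 and both Cy5 arrays above it, so the sign followed the dye of the driven RNA and not the form. That pattern held for 9.05% of all genes, and its mirror image for 7.59%. The form means were -0.11 ± 0.16 with D168A and -0.18 ± 0.37 with D168D, in each case smaller than the distance between array and mean.

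**Figure D2:**
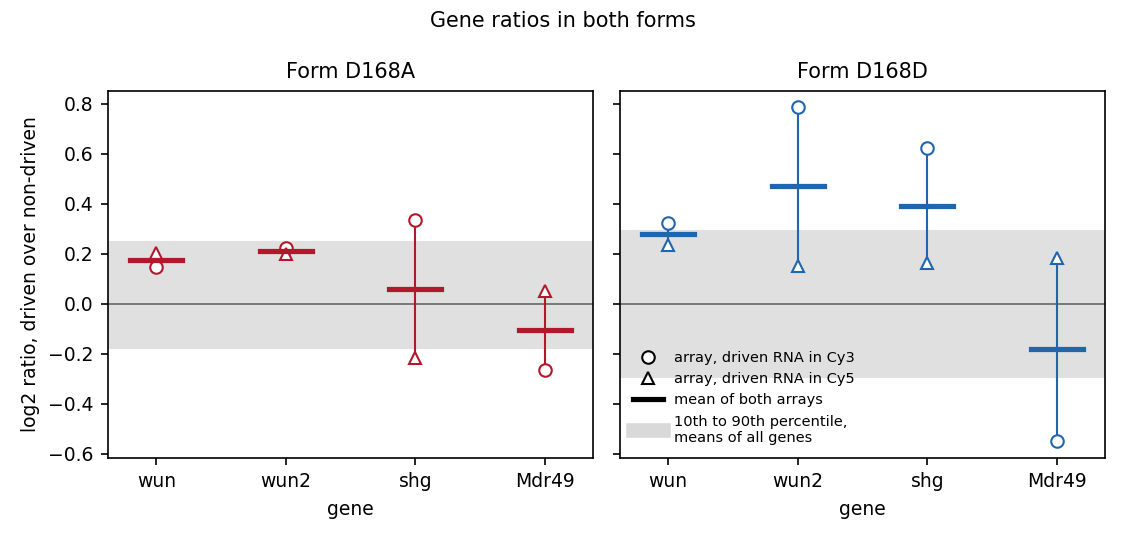
Gene ratios (y axis, log2 of driven over non-driven) of wun, wun2, shg and Mdr49 with D168A on the left and D168D on the right. Open symbols are the 2 arrays, thick bars their mean, and the grey band the 10th to 90th percentile of the form means of 10804 genes. With D168A all 4 means lie inside the band (-0.17 to 0.25), and with D168D the means of wun2 (0.47) and shg (0.39) lie above it (-0.29 to 0.29).

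The distance of an array from its form mean sets how far these small ratios can be read. With D168A it was 0.01 for wun2, 0.03 for wun, 0.16 for Mdr49 and 0.28 for shg, against a median of 0.11 over all genes. With D168D it was 0.05 for wun and 0.23 to 0.37 for the other 3, against a median of 0.16. For the single probes of wun it was 0.51 and 0.42 with D168D, in opposite directions, so the 0.05 does not make wun the best measured member. In shg, and in wun2 with D168D, the Cy3 array was the higher one. In Mdr49 it was the lower one. At a threshold of 1.5-fold, wun2 and shg passed on the D168D Cy3 array, as did 6.48% of genes there, and 0 members passed on the D168D Cy5 array, where 2.97% of genes did. On both arrays of a form, 0 members reached 1.5-fold in either direction. The shares of genes higher at that threshold were 0.5% with D168A and 0.768% with D168D, and the shares lower were 0.074% and 0.315%.

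**Figure D3:**
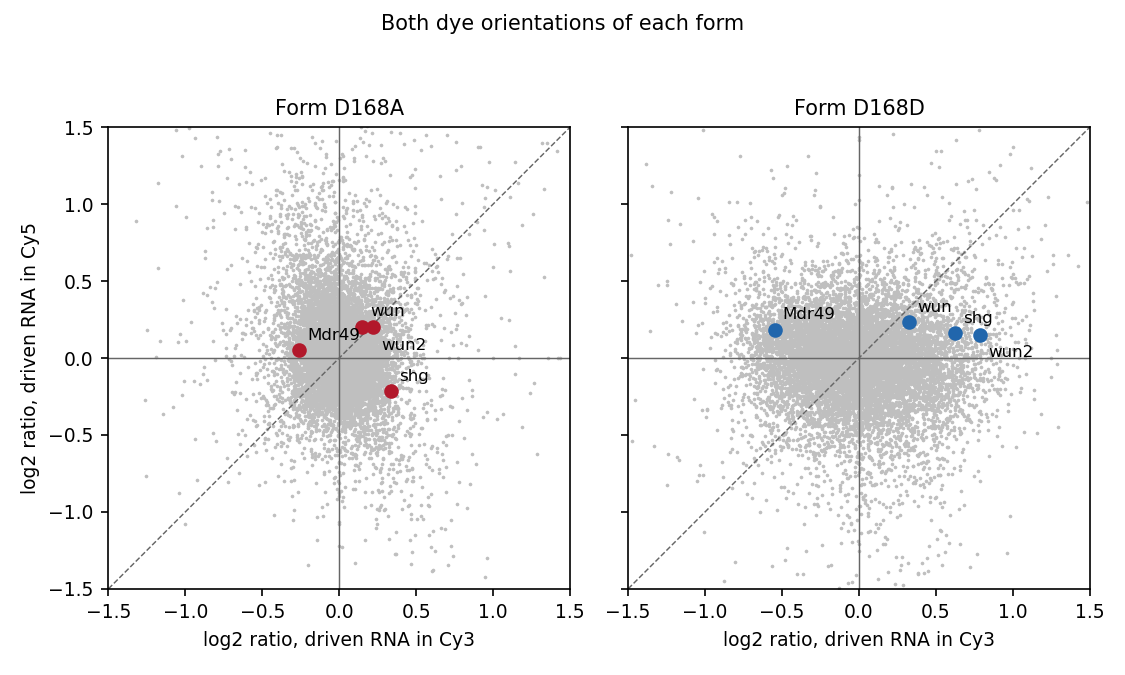
Log2 ratio on the array with driven RNA in Cy3 (x axis) against the array with it in Cy5 (y axis), for D168A on the left and D168D on the right. Grey points are all genes, coloured points the 4 members, and the dashed line marks equal values. Outside the axes lie 48 genes for D168A and 63 for D168D. With D168A wun and wun2 are next to the dashed line, shg is below 0 on the y axis only, and Mdr49 lies left of 0 in both panels.

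The contrast common to both forms was tested with limma on the 2 form means, over all genes. By limma, 0 of the 4 members passed an adjusted p of 0.05, where 0.0555% of genes did as higher and 0% as lower. The gene wun2 was at 0.34 (SE 0.10, limma adjusted p = 0.353), a 1.27-fold ratio in which 4 of 4 arrays lay above 0. The gene wun was at 0.23 (SE 0.09, adjusted p = 0.378, limma), above 0 on 4 of 4 arrays, and shg at 0.23 (SE 0.11, adjusted p = 0.414, limma), above 0 on 3 of 4. For Mdr49 the value was -0.14 (SE 0.09, adjusted p = 0.453, limma), with 2 of 4 arrays below 0. Both wun and wun2 were among the 8% of all genes that were higher at an unadjusted limma p under 0.05, a level that 5.16% of genes reached as lower. Unadjusted limma p stayed under 0.05 for both under centring, scaling, the median over probes and the removal of zeros. The last 2 of these settings leave both ratios as they are, since each gene has 2 probes and none with a deposited zero. It rose above 0.05 for both on the Cy5-driven arrays alone, and for wun on the Cy3-driven ones. By single probe, limma p was 0.016 and 0.29 for wun, and 0.023 and 0.060 for wun2. With the 4 arrays as if replicates, limma p was 0.069 for wun and 0.051 for wun2. The reported test has 2 form means and 1 residual degree of freedom per gene before moderation. It measures the spread between the D168A mean and the D168D mean. Technical spread and any difference between the forms both enter it and cannot be told apart.

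Between the forms, 3 of the 4 members were lower with D168A than with D168D, as were 44.7% of all genes. For shg the difference of D168A from D168D was -0.29 between the Cy3 arrays and -0.38 between the Cy5 arrays, with a mean of -0.33 ± 0.05. It was the largest mean difference among the members. With the arrays scaled to 1 spread, which shrinks the wide D168D Cy3 array, it was -0.17, from 0.07 (Cy3) and -0.41 (Cy5), so the direction common to both dye orientations was lost. For wun the difference was -0.18 (Cy3) and -0.03 (Cy5), with a mean of -0.10 ± 0.07. For wun2 it was -0.56 (Cy3) and 0.05 (Cy5), so the dye orientations disagreed in sign. Mdr49 differed by 0.29 (Cy3) and -0.13 (Cy5), again with no common sign. Scaling left mean differences of -0.03 for wun and -0.09 for wun2, and turned Mdr49 to -0.09, against a reported mean of -0.26 for wun2 and 0.08 for Mdr49. Below 0 in both orientations were 2 of 4 members, wun and shg, as were 17.2% of all genes, and above 0 in both were 0 of 4, against 22.2% of genes. At least 2-fold in both orientations were 0 members, where the shares over all genes were 0.13% higher and 0.00926% lower with D168A. At 1.5-fold the members again numbered 0, against 0.546% and 0.278% of genes. Each form is 1 replicate, so the difference was not tested.

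The members were not alike over the 4 arrays. By Euclidean distance, the closest members were wun2 and shg (0.46) and wun and wun2 (0.47), and the farthest were wun2 and Mdr49 (1.43). The 2 members with the largest ratios over the arrays were wun2 (root mean square 0.43) and shg (0.38). In the whole table, the genes closest to wun2 over the 4 arrays were CG9356 at a distance of 0.08, Trf2 at 0.10 and Tango1 at 0.10, where the median distance of all genes from wun2 was 0.99. Closest to shg were Psc at 0.10, shop at 0.14 and lute at 0.15, with a median distance of 0.92. Trf2 encodes a relative of the TATA-binding protein, Tango1 a protein of secretory cargo export and Psc a Polycomb group protein. Within a distance of 0.2 lay 40 genes for wun2 and 12 for shg, and the arrays are shared by all genes compared.

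Genes of the same processes were taken from 9 lists, of whose 94 genes 61 were measured. Of the 61, 0 reached 2-fold on both arrays of a form in either direction, and 0 passed limma for both forms together. Their medians were 0.04 with D168A and 0.14 with D168D, where the medians of all genes were 0.01 and -0.01. Above 0 in the form mean were 37 of 61 (60.7%) with D168A, against 53.2% of all genes. With D168D 38 of 61 (62.3%) were, against 47% of all genes. At 1.5-fold on both arrays of a form, 1 of 61 was higher with D168A (hkb), against 0.5% of all genes. With D168D 1 was higher (kug) and 1 lower (Cad86C), against 0.768% and 0.315%.

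**Figure D4:**
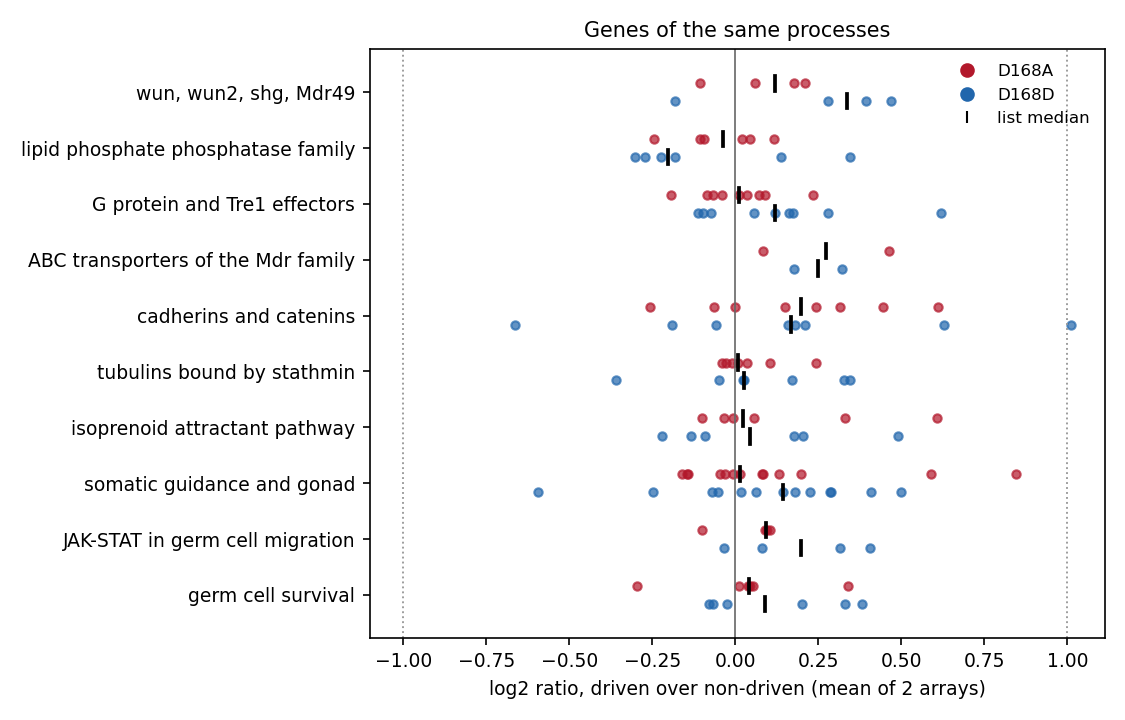
Form means (x axis, log2 ratio of driven over non-driven) of the 4 members (top row) and of the measured genes of 9 lists, with D168A in red above D168D in blue. Black bars are medians and dotted lines mark 2-fold. The 4 members have medians of 0.12 with D168A and 0.34 with D168D, and kug with D168D (1.01) is the only mean of these lists past a dotted line.

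All 6 listed relatives of wun and wun2 among the lipid phosphate phosphatases were measured, with medians of -0.04 with D168A and -0.20 with D168D, and 3 and 2 of them were above 0. Here and in the lists below, the highest and lowest gene is that of the mean over both forms, and another gene can be higher or lower in a single form. CG12746, the highest, was at 0.02 ± 0.22 with D168A and 0.35 ± 0.41 with D168D. CG11425, the lowest, was at -0.24 ± 0.19 with D168A and -0.22 ± 0.02 with D168D and below 0 on 4 of 4 arrays. Of the 6 relatives, 0 were above 0 on 4 of 4 arrays, against 9.33% of all genes. Below 0 on 4 of 4 were 2, against 8.26% of all genes.

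On the receptor side, 9 of 18 listed G protein genes and Tre1 effectors were measured. Their medians were 0.01 with D168A and 0.12 with D168D, with 5 and 6 of 9 above 0. Galphaq, a G protein alpha subunit, was the highest at 0.23 ± 0.05 with D168A and 0.62 ± 0.22 with D168D. Its 4 probes averaged above 0 on each of the 4 arrays. Gbeta76C, the beta subunit of photoreceptors, was the lowest over both forms at -0.07 ± 0.02 and -0.10 ± 0.01. Both ABC transporters related to Mdr49 were measured, by 1 probe each, and both had form means above 0 where Mdr49 did not. Mdr50 was at 0.46 ± 0.19 with D168A and 0.32 ± 0.06 with D168D, above 0 on 4 of 4 arrays, and Mdr65 at 0.08 ± 0.06 and 0.18 ± 0.30.

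Of the cadherins and catenins beside shg, 8 of 14 were measured, with medians of 0.20 and 0.17 for D168A and D168D and 5 of 8 above 0 in each. The highest was kug, an atypical cadherin of the Fat class, at 0.24 ± 0.04 with D168A and 1.01 ± 0.41 with D168D. For D168D its 1 probe was at 1.42 (Cy3) and 0.60 (Cy5), so kug passed 1.5-fold on both, as did 0.768% of all genes. The lowest over both forms was Cad86C, at 0.44 ± 0.54 with D168A and -0.66 ± 0.01 with D168D. For D168A, Cad86C, also measured by 1 probe, was at -0.09 (Cy3) and 0.98 (Cy5), so that form gave no settled direction. The catenin gene alpha-Cat, whose protein links E-cadherin to actin, was below 0 on both D168A arrays and above 0 on both D168D arrays. It is named here after its values were seen.

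For stathmin's binding partners, 7 of 8 tubulin genes were measured, with medians of 0.0074 and 0.03. The highest was betaTub85D, the testis beta-tubulin, at 0.24 ± 0.15 with D168A and 0.34 ± 0.36 with D168D. The lowest was betaTub60D at -0.01 ± 0.07 and -0.36 ± 0.19. Of the tubulins, 0 of 7 were on 1 side of 0 on all 4 arrays, where 9.33% of all genes were above and 8.26% below.

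The isoprenoid genes that act with Mdr49 had medians of 0.02 and 0.04 over 6 of 8 measured. The CAAX protease gene ste24b, measured by 1 probe, was the highest, at 0.61 ± 0.16 with D168A and 0.49 ± 0.05 with D168D. The farnesyl pyrophosphate synthase gene Fpps was the lowest, at -0.10 ± 0.03 and -0.22 ± 0.22. Somatic guidance and gonad genes had medians of 0.01 and 0.14 over 13 of 19. The gap gene hkb, needed to form the gut primordia that germ cells cross, was the highest at 0.85 ± 0.19 with D168A and 0.50 ± 0.46 with D168D. The FGF gene ths was the lowest over both forms at -0.14 ± 0.10 and -0.25 ± 0.37.

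JAK-STAT genes had medians of 0.09 and 0.20 over 4 of 7 measured, with the receptor gene dome the highest at 0.10 ± 0.13 with D168A and 0.41 ± 0.08 with D168D. The ligand gene upd2 was the lowest, at -0.10 ± 0.11 and -0.03 ± 0.19. Genes of germ cell survival had medians of 0.04 and 0.09 over 6 of 12. The translational repressor gene pum, a partner of nos in germ cells, was the highest over both forms at 0.01 ± 0.24 with D168A and 0.33 ± 0.12 with D168D. The apoptosome gene Dark was the lowest over both forms at 0.04 ± 0.01 and -0.07 ± 0.13. In single forms, by genes named after their values were seen, the list ranged from -0.30 (skl) to 0.34 (grim) with D168A and from -0.08 (Dronc) to 0.38 (skl) with D168D. The 2 probes of grim had D168A means of 0.63 and 0.05. Those of Dronc had D168D means of -0.39 and 0.24, so both of these ends average unlike probes.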

How the data were processed

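The authors deposited 1 log10 ratio per feature and array. Per the submitters' processing notes, Agilent Feature Extraction 7.1 made these values, while background correction, dye normalization and centring were not given in the sources used here. No label states the log base, which follows from that software and from the bound of 2 on the values. Direction was settled from the deposited values: zeros are written as negative where driven RNA was in Cy3 (446 features for D168A and 583 for D168D), as a turned sign leaves them, and the 314 unnamed features past 10-fold on all 4 arrays change sign with the dye orientation. The values were therefore used as driven over non-driven with no sign turned.

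Of 22575 features, 17328 had 1 symbol, 326 several and 4921 none. Only the first kind was used, and 17324 of them matched RefSeq genes (assembly Release 6 plus ISO1 MT) by gene ID. Values were converted to log2 and probes averaged into 10804 genes. A call needed 2-fold in 1 direction on both arrays. limma 3.58.1 in R 4.3.3 (lmFit, eBayes, two-sided, Benjamini-Hochberg over all genes, threshold 0.05) tested the 2 form means against 0, and its estimates were checked on simulated data. A gene at the highest or lowest mean over both forms in its list, or past 2-fold on both arrays of a form, was named, with all members and the 3 genes nearest to the 2 members of largest root mean square. The members and lists were chosen with earlier results of these data known. Alternatives covered thresholds, single dye orientations, centring, scaling, probes, zeros, sign and 4-array fits. No spot intensities were used, which leaves signal over background unknown; precision is limited by the number of arrays.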

Additional observations from a re-analysis of the deposited data

Results flagged for a closer look

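Among the 61 measured genes of the lists, 4 (6.56%) had D168A arrays that were both above 0 and D168D arrays both below it, or the reverse, as had 4.91% of all genes and 0 of the 4 members. The differences were not tested. The catenin gene alpha-Cat was at -0.28 (driven RNA in Cy3) and -0.23 (in Cy5) for D168A, and at 0.23 (Cy3) and 0.18 (Cy5) for D168D, a difference of -0.47 ± 0.05. Both of its probes showed the same signs, with D168A means of -0.25 and -0.26 and D168D means of 0.20 and 0.21. The pro-apoptotic gene skl differed by -0.68 ± 0.15, and its probes had D168A means of -0.34 and -0.25 and D168D means of 0.58 and 0.18. For D168D its probe 2 was at -0.21 (Cy3) and 0.58 (Cy5), so that probe lacked the pattern. The maternal alpha-tubulin gene alphaTub67C, measured by 1 probe, differed by -0.37 ± 0.29. It was next to 0 at -0.04 on both D168A arrays and at 0.04 on the D168D Cy5 array, against 0.61 on the D168D Cy3 array. The phosphatidylinositol phosphate kinase gene sktl differed by -0.16 ± 0.04. Among the markers of other cells, the hemocyte gene Sr-CI was at 0.61 (Cy3) and 0.21 (Cy5) for D168A, and at -0.81 (Cy3) and -1.32 (Cy5) for D168D, a difference of 1.48 ± 0.06 from 1 probe.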

How the results depend on the processing

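All counts below are genes, higher and lower together, and 0 members were called in any of the 46 settings. The reported counts are 17 with D168A, 18 with D168D, 15 between the forms and 6 for both forms together. In that order, 1.5-fold gave 62, 117 and 89, and 3-fold gave 5, 6 and 3, by construction. With 1 dye orientation alone, the 2-fold rule applies to 1 array per form, so its counts can only rise. A rule that every probe must pass can only lower them. For the other settings the cause was not tested. Arrays scaled to 1 spread gave 31, 11, 25 and 0. Turning the sign of the Cy3-driven arrays gave 7 and 5 for the forms and 0 for both together. The Cy3-driven arrays alone gave 66, 120, 134 and 2, and the Cy5-driven arrays alone 265, 196, 438 and 0. With every probe required to pass, D168D had 11. limma on the 4 arrays as if replicates gave 1, 1, 0 and 3. At an unadjusted p under 0.05 these 4-array fits had 246, 694, 181 and 680 genes. For both forms together, centring gave 3, probes without a deposited 0 gave 14 and single probes gave 0. The fits that gave 0 for both forms together had 1208 (scaled), 641 (turned), 783 (Cy5-driven alone) and 1942 probes (single) at an unadjusted p under 0.05, against 1422 genes in the reported one.

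The common ratio of a member never passed the threshold, with adjusted p of 0.274 to 0.998 over 39 alternatives in limma, and changed sign in 6. With the Cy5-driven arrays alone, shg was at -0.027 and Mdr49 at 0.12. After that sign was turned, wun was at -0.0089, wun2 at -0.16, shg at -0.25 and Mdr49 at 0.26, and Tao was at -0.068 with D168A, -0.024 with D168D and -0.046 for both. Tao itself kept its direction and missed the threshold when scaled (adjusted p = 0.204), on the Cy5-driven arrays alone (0.147) and by probe (0.112) in limma. Under centring and scaling, form means of the members kept their sign but not their size. The median over probes and the removal of zeros left them unchanged by construction, as members have at most 2 probes and none with a deposited zero. Of the means with D168A, shg ranged from 0.05 to 0.13 and Mdr49 from -0.18 to -0.11. Of those with D168D, Mdr49 ranged from -0.18 to -0.09, wun2 from 0.36 to 0.47 and shg from 0.30 to 0.39. Differences between the forms under scaling are given with the reported ones. Signal over background is unknown.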

Other observations

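The beta-tubulin gene betaTub56D, named here after its values were seen, followed the dye more strongly than any member. For D168A it was at 0.68 where driven cells were in Cy3 and -0.66 where they were in Cy5, and for D168D at 0.77 (Cy3) and -0.44 (Cy5), while its form means were 0.0074 and 0.17. The FGF gene pyr, measured by 1 probe, was at 0.30 (Cy3) and 0.88 (Cy5) for D168A, and at 0.28 (Cy3) and -1.47 (Cy5) for D168D, so the last array stands apart from the other 3. For hkb the D168D arrays were at 0.96 (Cy3) and 0.04 (Cy5), and on the Cy5 array its probes gave 0.39 and -0.32.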
